A study of Mus musculus with 14 samples.

Results

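The narrowest sites of histone H3 mono-methylated at lysine 4 (H3K4me1) in NG3 mouse fibroblasts are described here. They were chosen by their width alone, as peaks of at least 200 and under 300 bp from start to end on chromosomes 1 to 19 and X. This gave 30252 narrow sites of 160144 sites in all, or 18.9%. Their width is therefore a description and not a result, and they were compared with the 94070 sites of 500 bp or more, here called wide sites.

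NG3 cells are a single clone of immortalized mouse embryo fibroblasts (iMEF) in which exon 4 of both endogenous Ash2l alleles has been deleted. The cells depend on human ASH2L fused to an FKBP degron and a pair of HA tags (FKBP-HA2-ASH2L), which was introduced with a lentivirus, and the control cells carry the same deletion and fusion. H3K4me1 was measured by ChIP-seq in control cells and after 0.5, 2, 4, 8 and 16 h with dTAG-13, a PROTAC that directs the fusion to degradation, with 2 replicates for each of the 6 conditions, and inputs were sequenced for control cells and for the 16 h time point. The deposited table holds 1 set of sites over all 12 H3K4me1 libraries, with no read count or score for any of them, so a site may stem from any condition, the depth behind it is unknown, and neither a replicate error nor a change upon dTAG-13 can be given. In place of a replicate error, shares of sites carry 95% Wilson intervals, differences carry 95% intervals for the counting of sites alone, and each difference was recomputed on the 20 chromosomes. Neighboring sites are not independent of each other, so these intervals are too narrow, and no p-value is given.

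H3K4me1 is set by COMPASS/KMT2 complexes, of which ASH2L is a core subunit, and it is best known as a mark of the nucleosomes at enhancers and beside active promoters. Stretches of marked nucleosomes often lie to either side of a gap in which transcription factors are bound and nucleosomes are few. In fibroblasts such elements often hold the consensus sequences of AP-1, the dimers of FOS and JUN proteins, and of TEAD factors, the DNA-binding partners of YAP and TAZ. The narrow sites are about as long as a single nucleosome with its linker. The chromatin was sheared to fragments of about 200 bp, however, and nucleosome positions were not measured.

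To show what these sites look like, 8 narrow sites of exactly 200 bp are printed from the GRCm38.p6 (mm10) RefSeq sequence, plus strand, 5′ to 3′. Capitals mark matches to the consensus sequences of AP-1 (TGANTCA), TEAD (GGAATG), ETS (CCGGAAG) and RUNX (TGTGGTT) on either strand. The first 5 lie in the 5 protein-coding genes with most narrow sites, the next 2 are the sites of this width in the 12 leading genes that are wholly masked as repeats, and the last is the most GC-rich such site near a protein-coding TSS. The site that followed it in GC content, at Ppp1r12a, touched an untranslated region and is not printed. None of the 8 touched an annotated exon.
Pde4d site, chr13:109520725-109520924: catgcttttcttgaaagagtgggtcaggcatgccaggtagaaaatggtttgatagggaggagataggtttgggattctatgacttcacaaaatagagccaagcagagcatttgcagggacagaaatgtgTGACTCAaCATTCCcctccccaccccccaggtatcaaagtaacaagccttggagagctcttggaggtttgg
Gm20388 site, chr8:120135807-120136006: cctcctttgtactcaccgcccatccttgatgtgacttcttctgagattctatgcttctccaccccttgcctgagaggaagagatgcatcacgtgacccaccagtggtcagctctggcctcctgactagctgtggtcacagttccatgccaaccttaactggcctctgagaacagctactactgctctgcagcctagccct
Fgfr2 site, chr7:131696990-131697189: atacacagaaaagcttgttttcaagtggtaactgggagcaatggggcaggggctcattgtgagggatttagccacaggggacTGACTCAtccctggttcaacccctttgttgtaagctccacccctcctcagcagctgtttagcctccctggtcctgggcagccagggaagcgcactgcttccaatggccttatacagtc
Lpp site, chr16:24555731-24555930: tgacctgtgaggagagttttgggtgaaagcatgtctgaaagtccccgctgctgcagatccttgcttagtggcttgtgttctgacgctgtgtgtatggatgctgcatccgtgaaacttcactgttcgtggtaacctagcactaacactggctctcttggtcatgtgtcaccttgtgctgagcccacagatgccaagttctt
Prkg1 site, chr19:31318701-31318900: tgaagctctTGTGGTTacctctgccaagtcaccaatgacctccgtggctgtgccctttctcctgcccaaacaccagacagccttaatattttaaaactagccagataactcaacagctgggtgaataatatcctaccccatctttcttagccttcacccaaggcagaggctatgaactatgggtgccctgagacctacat
masked Pde4d site, chr13:108720432-108720631: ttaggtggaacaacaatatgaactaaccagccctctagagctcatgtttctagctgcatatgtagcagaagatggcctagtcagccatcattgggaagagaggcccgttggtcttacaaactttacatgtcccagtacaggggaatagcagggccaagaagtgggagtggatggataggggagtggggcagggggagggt
masked Prkg1 site, chr19:31360071-31360270: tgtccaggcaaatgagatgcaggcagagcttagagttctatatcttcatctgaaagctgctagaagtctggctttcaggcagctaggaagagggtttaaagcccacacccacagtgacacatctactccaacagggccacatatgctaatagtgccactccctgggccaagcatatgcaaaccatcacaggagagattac
Washc4 site, chr10:83544164-83544363: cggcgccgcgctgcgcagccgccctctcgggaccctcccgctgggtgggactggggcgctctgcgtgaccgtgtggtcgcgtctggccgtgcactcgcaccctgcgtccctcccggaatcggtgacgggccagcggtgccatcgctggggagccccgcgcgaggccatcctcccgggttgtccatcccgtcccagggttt

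The Pde4d site held an AP-1 and a TEAD match next to each other, beginning at base 130 of the site, and no other site lay within 11892 bp. In the Fgfr2 site an AP-1 match began at base 83, and the next site was 9116 bp away. The annotated spans of Fgfr2 and Gm20388 overlap 30 and 73 other protein-coding genes. Their printed sites are named for the span and cannot be ascribed to a single gene. The Prkg1 site had a RUNX match near its start, and the next site was 10776 bp away. The sites in Gm20388 and Lpp held none of the 4 sequences. The 75 bases at the center of both masked sites occurred only once in the genome, although the sequence is annotated as repeats. Only exact copies were counted, so near copies may exist. The masked Prkg1 site lay 598 bp from a site of 1594 bp, and is an example of a narrow site beside a wide one. The Washc4 site had 26 CpG and a GC content of 74.5%, and lay 323 bp from the nearest transcription start site (TSS).

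The narrow sites had a median width of 238 bp. A width of exactly 200 bp, which no site undercut, was shared by 4335 of them or 14.3%, while only 333 sites were a single base wider. Together the narrow sites covered 7.27 Mb, which is 4.87% of the bases in all sites on these chromosomes. The limit of 300 bp does not follow a break in the data. Just inside it, the 2291 sites of at least 290 bp had a GC content of 49.6%, 8.86% of them were within 1 kb of a TSS and 26.01% had no other site within 5 kb. Just outside, the 2129 sites of 300 bp and under 310 bp gave 49.7%, 8.78% and 24.2%.

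**Figure D1:**
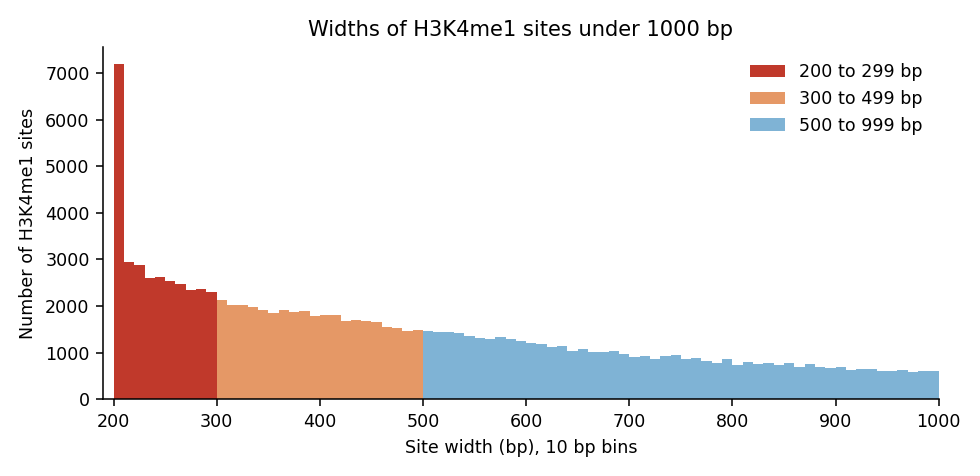
Number of H3K4me1 sites (y axis) by width in bins of 10 bp (x axis), up to 1000 bp, with the 30252 narrow sites in red. Apart from the 4335 sites of exactly 200 bp in the first bin, the number tended to fall with width, with small rises between some bins, and showed no step at 300 bp.

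The set of sites was first compared with the labeled cell type. Of 18 fibroblast markers, 15 had a site of any width within 1 kb of their most upstream TSS, among them Col1a1, Col1a2, Fn1, Vim, Prrx1 and Twist1, and Lum, Tcf21 and Col3a1 had none. None of 5 hematopoietic markers had such a site, while 4 of 5 epithelial, 2 of 5 endothelial, 4 of 5 neuronal and 2 of 5 skeletal muscle markers did. For all protein-coding genes the share was 64.4%, so a site at a promoter does not by itself name a cell type. Narrow sites took little part in this. They overlapped 4.95% of these promoters and, of the 43 markers, only that of Postn, which encodes the matrix protein periostin.

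Narrow sites were rare at TSSs. They were centered within 1 kb of a TSS in 8.44% of cases (interval 8.13 to 8.76%) and wide sites in 19.8% (19.5 to 20.1%), a difference of -11.4 percentage points (interval -11.8 to -10.9). Narrow sites had the lower share on 20 of 20 chromosomes, with differences from -14.0 to -8.13 points. Windows of 200 bp placed every 10 kb over the genome gave 6.10%. The share rose with each width class, from 10.1% at 300 to under 500 bp to 13.9% at 500 to under 1000 bp and 25.7% at 1000 bp or more. For TSSs of protein-coding transcripts the contrast was larger in relative terms, with 4.44% of narrow and 14.7% of wide sites. The median distance to the nearest TSS was 12.2 kb (quartiles 3.92 and 31.7 kb) for narrow and 7.83 kb (quartiles 1.70 and 21.9 kb) for wide sites, and 16.4 kb for genome windows. More than 100 kb from any TSS lay 5.56% of narrow and 2.57% of wide sites, a difference of 2.99 points (interval 2.72 to 3.27) with the same sign on 20 of 20 chromosomes.

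Most narrow sites were intronic or lay between genes. The center was outside every annotated gene for 39.97% of narrow (interval 39.4 to 40.5%) and 33.8% of wide sites (33.5 to 34.1%), against 52.7% of genome windows. This difference of 6.18 points (interval 5.55 to 6.81) ranged from 1.72 to 11.4 points over the chromosomes. An intron held the center of 53.5% of narrow and 55.7% of wide sites, and an exon that of 6.50% and 10.5%. When sites within 1 kb of a TSS were set apart first, 4.08% of narrow and 3.43% of wide sites remained in exons, so that the excess of wide sites in exons lay near TSSs.

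**Figure D2:**
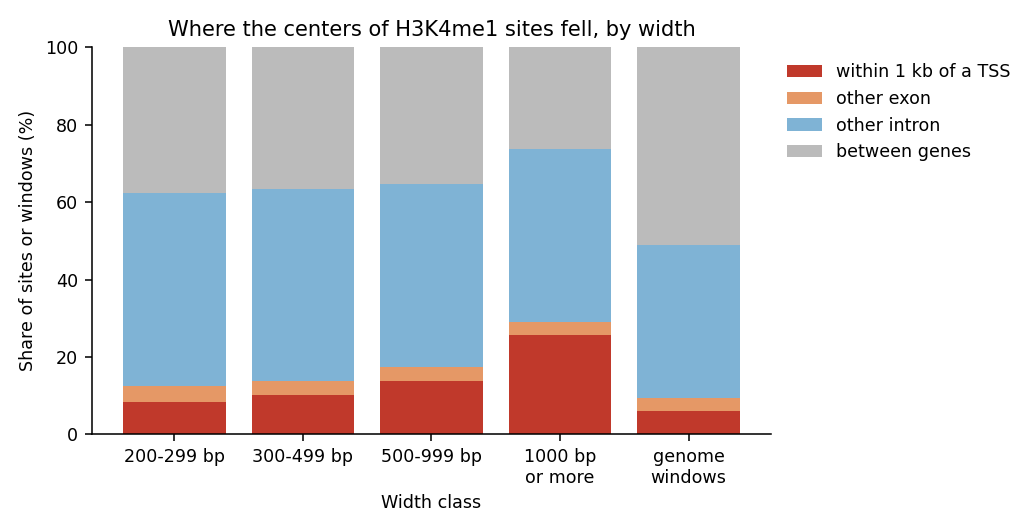
Share of site centers (y axis, %) within 1 kb of a TSS, in other exons, in other introns and between genes, for 4 width classes and for genome windows of 200 bp (x axis). Of the 4 width classes, the share within 1 kb of a TSS was lowest, at 8.44%, among narrow sites and highest, at 25.7%, among sites of 1000 bp or more.

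The narrow sites that did lie at promoters were placed differently from wide ones. Of 1342 narrow sites centered within 1 kb of a protein-coding TSS, 39.6% were downstream of it, compared with 66.1% of 13803 wide sites. Between 500 and 1000 bp upstream lay 24.4% of these narrow and 11.98% of these wide sites. A wide site within 1 kb accompanied 58.3% of the narrow promoter sites. Their central 200 bp held 5.82 CpG on average, compared with 10.4 in wide sites at promoters. Counted by gene, the 2 kb promoter was overlapped by narrow sites and no others in 295 of 21728 protein-coding genes, and these promoters had 24.4 ± 18.5 CpG per kb (SD over promoters). Promoters with other sites only numbered 12915 and had 44.7 ± 21.4 CpG per kb, and the 7738 promoters with no site had 13.1 ± 13.3. The promoters with narrow sites alone were thus intermediate in their mean, with spreads that overlap those of both other groups.

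Narrow sites stood alone more often than wide ones. No other site lay within 5 kb of 25.6% of narrow sites (interval 25.1 to 26.1%) and of 18.98% of wide sites (18.7 to 19.2%). The difference of 6.63 points (interval 6.08 to 7.19) had the same sign on 20 of 20 chromosomes, from 3.76 to 9.96 points. It was 3.28 points (interval 2.71 to 3.86) when distances were taken between centers and not between edges. The median gap to the nearest site was 1282 bp for narrow (quartiles 466 and 5184 bp) and 946 bp for wide sites (quartiles 401 and 3537 bp). A wide site within 1 kb was found for 8653 narrow sites or 28.6% (interval 28.1 to 29.1%), and a further wide site for 35.7% of wide sites (35.4 to 36.0%), which is a difference of -7.07 points (interval -7.66 to -6.47). Of the genome windows, 11.5% lay inside or within 1 kb of a wide site. Another narrow site within 1 kb was present for 10.1% of narrow and 9.82% of wide sites, a difference of 0.28 points whose interval, -0.11 to 0.67, includes zero.

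Each narrow site was then placed in 1 of 4 settings. There were 7749 alone sites (25.6%) without another site within 5 kb, 8848 sites (29.2%) with the next site 1 to 5 kb away, 5002 sites (16.5%) with only sites under 500 bp within 1 kb, and the 8653 sites (28.6%) beside a wide site. Of these last, 933 had a wide site within 1 kb on both sides. The settings differed in position. Within 1 kb of a TSS were 6.22% of alone sites (interval 5.70 to 6.78%) and 13.6% of sites beside a wide one (12.9 to 14.4%). The median distance to a TSS was 17.99 kb and 7.90 kb, respectively.

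Where narrow sites had close neighbors, gaps of some lengths were more frequent than others. The caller's joining of neighboring peaks may set these lengths, and its part was not tested. Among all sides of narrow sites, gaps of 300 to under 350 bp were the most frequent, with 2098 cases or 3.47%, whereas gaps of 200 to under 250 bp numbered 374 and gaps under 50 bp 197. Wide sites had their maximum in the same bin. The sequence in the gaps differed from that of the sites. Over 9045 gaps of 200 to 1000 bp between a narrow and a wide site, the central 200 bp had a GC content of 40.5 ± 8.39% (SD over gaps), and over 1515 gaps between a pair of narrow sites it was 38.4 ± 6.82%. Gaps between wide sites had 42.8 ± 10.7%.

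**Figure D3:**
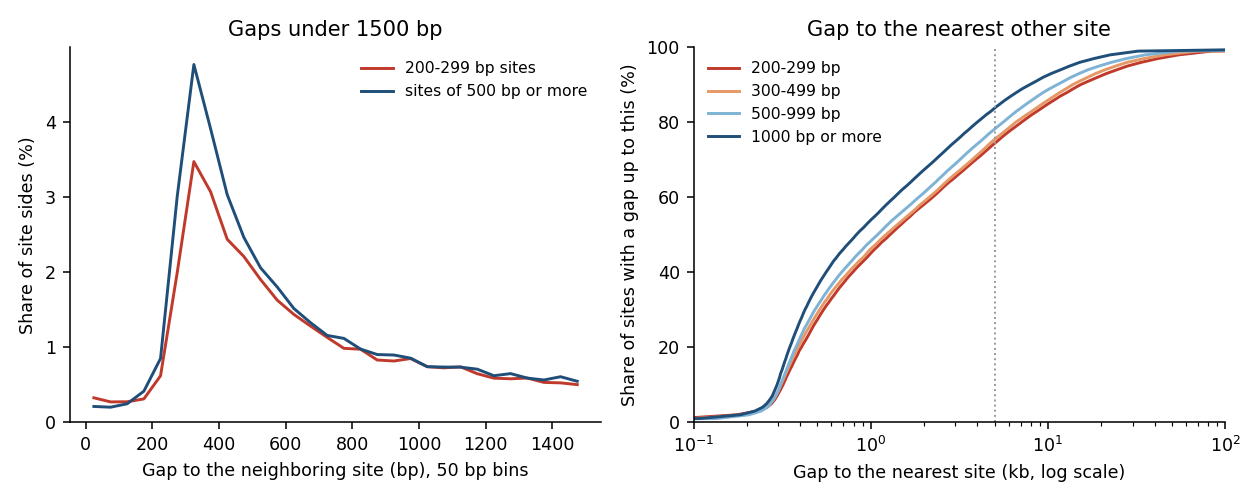
Left, share of site sides (y axis, %) by the gap to the neighboring site (x axis, bp, bins of 50 bp) for narrow and wide sites, with a maximum at 300 to under 350 bp for both. Right, share of sites (y axis, %) whose nearest other site lies within a given gap (x axis, kb, log scale) for 4 width classes, with a dotted line at 5 kb, beyond which 25.6% of narrow sites lie.

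The base composition of narrow sites was the most uniform of all width classes. The mean GC content of their central 200 bp was 49.2 ± 4.24% (SD over sites), that of wide sites 48.8 ± 8.10% and that of genome windows 41.8 ± 7.94%. The means of narrow and wide sites differed by 0.41 points (interval 0.34 to 0.48), and the sign was the same on 17 of 20 chromosomes. Without sites within 1 kb of a TSS the difference was 1.83 points (interval 1.77 to 1.90). When the GC content was taken over the whole site in place of the central 200 bp, the sign turned, to -0.46 points, and compared with sites of 1000 bp or more it was -0.79 points. A GC content of 45 to 55% was found in 79.3% of narrow and 52.9% of wide sites, and in 30.9% of genome windows. Below 40% lay 169 narrow sites or 0.56% (interval 0.48 to 0.65%), but 9.78% of wide sites (9.59 to 9.97%) and 41.0% of genome windows. At the other end, 1.69% of narrow and 8.05% of wide sites had a GC content of 60% or more. The differences below 40% and at 60% or more each had the same sign on 20 of 20 chromosomes.

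AT-rich sequence was also rare in wide sites when the whole site was counted. Over the whole site, a GC content below 40% was found in 0.49% of wide and 0.97% of narrow sites. The profiles around the center differed between width classes. In narrow sites the GC content had a single maximum of 50.9% in the central 50 bp, and it fell to 39.95% at 250 to 300 bp from the center before rising to about 42.7% further out. Sites of 300 to under 500 bp had a pair of maxima, of 49.6% on one side at 50 to 100 bp and of 49.5% on the other, with 48.1% in the center. In sites of 500 to under 1000 bp the maxima lay further apart and the center had 47.5%. Sites of 1000 bp or more had no such dip, with 50.04% in the center. The share of sites with a central GC content below 40% was 0.60% at widths of 280 to under 300 bp and 0.91% at 300 to under 320 bp, and reached 10.95% at 480 to under 500 bp.

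**Figure D4:**
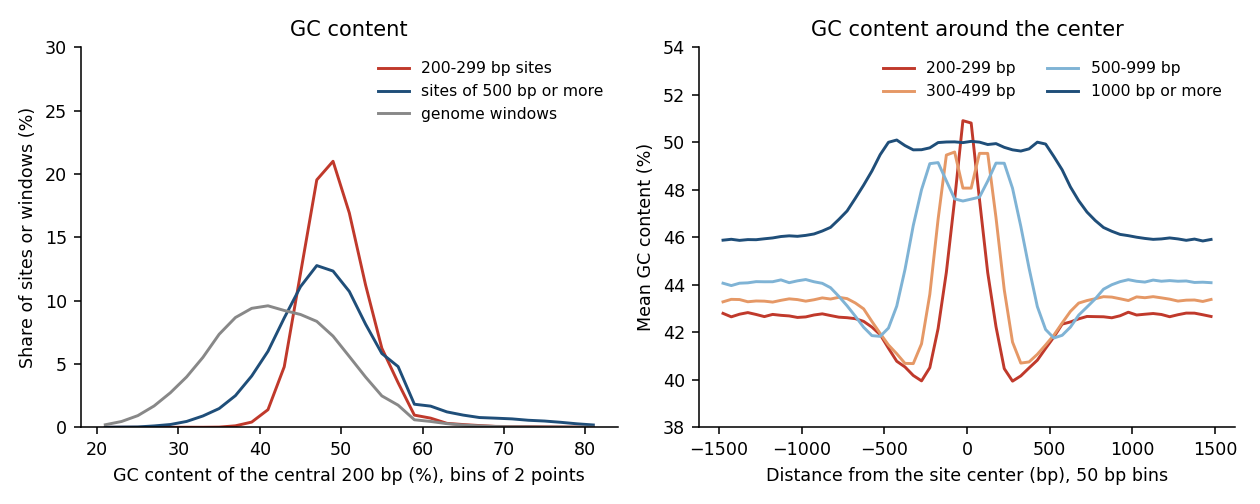
Left, distribution of the GC content of the central 200 bp (x axis, %, bins of 2 points) as a share of sites or windows (y axis, %). Narrow sites form the tightest distribution, with 79.3% of them between 45 and 55%. Right, mean GC content (y axis, %, not from zero) by distance from the site center (x axis, bp, bins of 50 bp) for 4 width classes, in which narrow sites have a single central maximum of 50.9%.

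CpG were fewer in narrow sites although their GC content was similar. The central 200 bp held 2.50 CpG on average, compared with 3.66 in wide sites and 1.67 in genome windows. With 10 or more CpG there were 403 narrow sites or 1.33% (interval 1.21 to 1.47%) and 7.64% of wide sites (7.48 to 7.81%). No CpG was present in 13.9% of narrow and 13.5% of wide sites.

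Repeats were rarer in narrow sites than in genome windows, though slightly less so than in wide sites. Sites could be called only where reads were placed, and the part of this in the contrast with genome windows was not tested. On average 18.6% of the central 200 bp was masked (interval 18.3 to 18.9%), compared with 15.9% in wide sites (15.8 to 16.0%) and 34.3% in genome windows. The difference of 2.67 points (interval 2.36 to 2.98) had the same sign on 20 of 20 chromosomes, and it was 1.65 points when sites within 1 kb of a TSS were left out. No masked base was present in 39.6% of narrow and 39.5% of wide sites. The classes differed in the heavily masked sites. More than 50% of the window was masked in 12.8% of narrow and 8.27% of wide sites, and the whole window in 354 narrow sites or 1.17% (interval 1.06 to 1.30%) and in 0.50% of wide sites (0.46 to 0.55%). In genome windows the latter share was 9.87%. Simple repeats went the other way. Runs of 24 bases of alternating CA or TG were found in 0.39% of narrow and 1.19% of wide sites, and those of GA or TC in 0.21% and 0.58%. Genome windows gave 1.63% and 0.77%. The repeat classes behind the masking were not analysed here.

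Central sequence with more than 1 exact copy in the genome was rare in the sites, which were called from aligned and filtered reads. How far this alone lowers their share below that of genome windows was not tested. The 75 bases at the center, a word as long as a read, occurred more than once in the genome for 154 narrow sites or 0.51% (interval 0.43 to 0.60%) and for 0.40% of wide sites (0.37 to 0.45%). The difference of 0.11 points (interval 0.02 to 0.20) had the same sign on 15 of 20 chromosomes. In genome windows the share was 8.19%. Of the 354 wholly masked narrow sites, 321 or 90.7% had a central word that occurred only once, as did both masked examples above.

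The comparison of AP-1 consensus sequences between narrow and wide sites depended on which sites were compared. TGANTCA was present in the central 200 bp of 12.4% of narrow (interval 12.01 to 12.8%) and 12.4% of wide sites (12.2 to 12.6%), a difference of -0.01 points with an interval of -0.43 to 0.42. Among sites more than 1 kb from a TSS narrow sites had the lower share, by -1.17 points (interval -1.63 to -0.71), and compared with sites of 1000 bp or more they had the higher one, by 1.39 points (0.93 to 1.86). Genome windows had it in 5.97% and windows 5 kb to either side of narrow sites in 5.89%. TEAD sequences were present in 15.3% of narrow and 13.8% of wide sites (difference 1.52 points, interval 1.06 to 1.98) and RUNX sequences in 6.07% and 5.38% (0.69 points, 0.39 to 1.00). Sites of 300 to under 500 bp had nearly the same shares as narrow ones, 15.28% and 6.04%. Among alone sites the differences were 3.24 and 1.43 points. Beside wide sites they were 0.58 (-0.20 to 1.38) and 0.21 points (-0.30 to 0.75). ETS sequences, which are common at GC-rich promoters, were found in 1.02% of narrow and 1.47% of wide sites (-0.45 points, -0.58 to -0.31). In genome windows TEAD, RUNX and ETS sequences were present in 10.9%, 4.69% and 0.57%. A match is a description of the sequence and not evidence that a factor is bound.

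The setting of a narrow site, by contrast, went with a clear difference in AP-1 sequences. This split was chosen after values were seen. TGANTCA was present in 16.2% of alone sites (interval 15.4 to 17.1%), 14.0% of sites 1 to 5 kb from the next, 10.6% of sites beside narrower sites only and 8.30% of sites beside a wide site (7.73 to 8.90%). The difference between alone sites and those beside a wide one was 7.92 points (interval 6.92 to 8.93), and it was positive on 20 of 20 chromosomes (3.76 to 11.6 points). Without the sites within 1 kb of a TSS the shares were 16.5% and 8.62%. TEAD sequences differed in the same direction, with 17.7% and 12.9% (4.87 points, interval 3.77 to 5.98, 19 of 20 chromosomes), and RUNX sequences with 7.02% and 5.24%. ETS sequences did not differ beyond their interval (0.16 points, -0.16 to 0.49). Wide sites went the same way for AP-1, with 15.5% when alone and 9.46% beside another wide site (6.05 points, interval 5.43 to 6.67).

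AP-1 matches around alone narrow sites were most frequent away from the center. These sites end less than 150 bp from their center. The ring at 50 to under 150 bp thus crosses their edges, and densities further out lie outside them. At 50 to under 100 bp, within every such site, there were 1.009 matches per kb. Within 50 bp of the center there were 0.79 matches per kb (95% Poisson interval 0.73 to 0.85), at 50 to under 150 bp 1.00 (0.95 to 1.05) and at 150 to under 250 bp 0.69 (0.65 to 0.73). At 1000 to under 2000 bp the density was 0.32 (0.31 to 0.33). The density at 50 to under 150 bp exceeded that in the center on 15 of 20 chromosomes. TEAD matches did not show this and were densest in the center, with 1.03 per kb (0.96 to 1.11) against 0.96 (0.91 to 1.00). In alone wide sites AP-1 matches were densest in the center, with 0.88 per kb (0.84 to 0.92) against 0.82 (0.79 to 0.85) at 50 to under 150 bp. Narrow sites beside a wide one had a nearly flat profile, with 0.44 (0.40 to 0.49) in the center and 0.39 (0.38 to 0.40) at 1000 to under 2000 bp. Their outer ring can fall inside the wide neighbor, whereas the same ring around alone sites holds no other site by definition. In bins of 50 bp, the GC content beside a wide site rose from 40.4% at 250 bp to 45.5% at 1050 bp. In alone narrow sites it was 41.1% at 1050 bp. The part of the neighbor in the flat profile was not tested. The GC content around alone narrow sites fell from 50.9% within 50 bp of the center to 45.03% at 100 to under 150 bp. The part of base composition in the AP-1 profile was not tested.

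**Figure D5:**
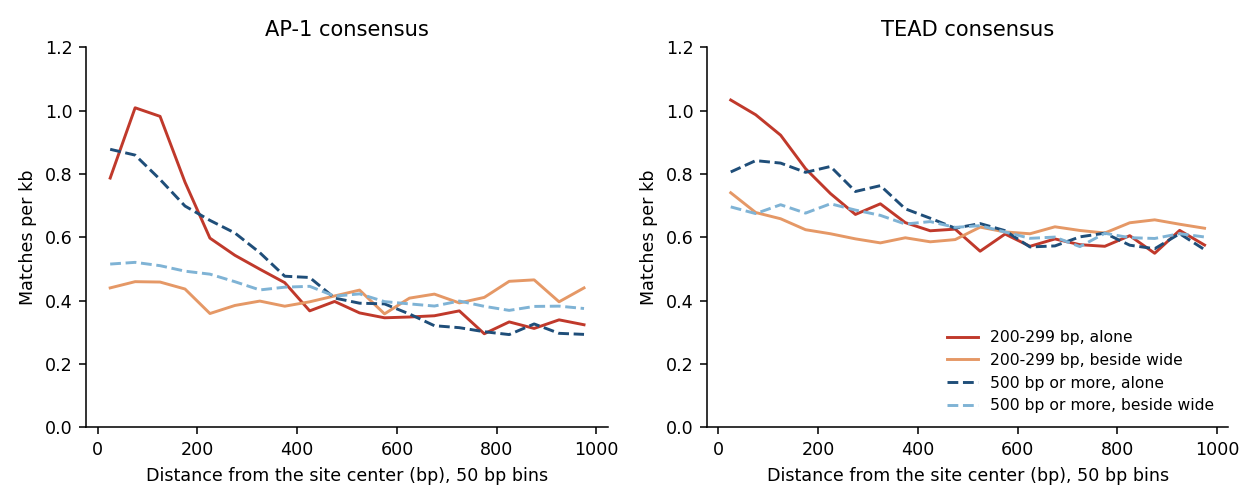
Matches per kb (y axis) to the AP-1 (left) and TEAD consensus (right) by distance from the site center (x axis, bp, bins of 50 bp, both sides and both strands combined), for narrow and wide sites that are alone (no other site within 5 kb) or beside a wide site (within 1 kb). In alone narrow sites AP-1 matches rose from 0.79 per kb in the center to 1.009 at 50 to under 100 bp, while narrow sites beside a wide one stayed near 0.44.

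Chromosome X differed from the autosomes in the proportion of narrow sites. Of its 2560 sites, 680 or 26.6% (interval 24.9 to 28.3%) were narrow. On the autosomes the share ranged from 15.7% on chromosome 7 to 20.97% on chromosome 3, with a median of 18.95%. Per Mb of sequence chromosome X still had fewer narrow sites, 4.16, than any autosome (9.47 to 16.1).

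At least 1 narrow site was centered between 1 kb upstream and the end of 6622 of 21728 protein-coding genes, or 30.5%. Wide sites were present in 14912 genes or 68.6%. Most genes with narrow sites had wide ones as well, and 537 of the 6622 genes (8.11%) had no wide site, and in 351 genes all sites were narrow. A single narrow site was found in 3441 genes and 5 or more in 886. Long genes had more, since 10.8% of genes under 20 kb and 88.3% of genes of 200 to 500 kb had a narrow site. The proportion of narrow among all sites of a gene also rose with length, from 11.2% under 20 kb to 23.0% at 500 kb or more.

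All 12 genes with most narrow sites had still more wide sites. Pde4d, a phosphodiesterase that degrades cAMP, had 60 narrow and 108 wide sites among 230 in all. Lpp, a LIM domain protein of focal adhesions, had 40 and 87, and Prkg1, the cGMP-dependent protein kinase, had 31 and 44. Ext1, a polymerase of heparan sulfate, had 26 and 79. Zbtb20, a zinc finger repressor, had 29 narrow and 36 wide sites, and Adamtsl1, a secreted matrix protein, 26 and 42. Genes best known from neurons were also among them, with 29 narrow and 35 wide sites in Dlg2, a postsynaptic scaffold, and 27 and 52 in Erc2, a protein of the presynaptic active zone. Macrod2, an ADP-ribose hydrolase, had 27 and 32. The annotated spans of Gm20388, Fgfr2 and Gm37240 overlap 73, 30 and 7 other protein-coding genes, so the 49, 48 and 28 narrow sites counted there cannot be ascribed to a single gene. Among the 5 genes with most wide sites, Foxp1, a forkhead transcription factor, had 118 wide and 26 narrow sites, a narrow share of 14.9% compared with 26.1% in Pde4d.

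Genes with narrow but without wide sites had few sites in all. Pdhx, a component of the pyruvate dehydrogenase complex, had 4 narrow sites of 6, and Tmprss11d, an airway serine protease, had 4 of 4. With 3 narrow sites each followed Ammecr1, Ankrd22, Catsperb, Colec10, Eif4g2 and Emc2. Catsperb, a subunit of a sperm calcium channel, had 4 sites in all and Eif4g2, a translation initiation factor expressed in most cells, had 5. The widths in these genes therefore rest on a handful of sites each.

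Relative to length, narrow sites were densest in Aspn, which encodes the matrix proteoglycan asporin, with 20.7 per 100 kb (5 sites). Hpgd, a prostaglandin dehydrogenase, had 5 narrow sites of 7, and Fhl1, a LIM domain protein encoded on chromosome X, 10 of 19. Bmpr1a, a receptor for bone morphogenetic proteins, had 14 narrow and 13 wide sites. Ahcyl1, Golph3 and Dnajb4 had 5 or 6 narrow sites each. Over all protein-coding genes the density was 1.57 narrow and 5.67 wide sites per 100 kb.

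Gene lists for fibroblasts were then examined. Of 36 genes of the fibroblast matrix, 16 (44.4%) had a narrow and 34 a wide site, compared with 30.5% and 68.6% of all protein-coding genes. Of genes of 20 to 50 kb 34.1% had a narrow site, and the median span of these matrix genes was 38.45 kb. Narrow sites made up 16.3% of the 374 sites in these genes (interval 12.9 to 20.4%), against 17.2% over all genes. Per 100 kb these genes had 3.09 narrow and 11.9 wide sites, against 1.57 and 5.67 over all genes. Genes of 20 to 50 kb had 1.49 and 6.71. Col5a2, a fibrillar collagen, had 14 narrow and only 4 wide sites. The order was the other way in Fbn1, which encodes fibrillin and had 10 narrow and 37 wide sites. Tnc, which encodes tenascin C, had 8 and 5, and the collagen gene Col12a1 had 5 and 9. In the list of contractile and cytoskeletal genes 13 of 31 genes (41.9%) had a narrow site and all had a wide one. The median span of this list was 27.4 kb, also within the class of 20 to 50 kb with 34.1%. Pdlim5 had 16 narrow and 20 wide sites, Cald1, encoding caldesmon, 10 and 45, and Vcl, encoding vinculin, 10 and 16. Narrow sites were 18.5% of the sites in this list, which had 4.81 narrow and 16.1 wide sites per 100 kb.

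Among 26 genes of growth factor and TGF-beta signaling, 18 (69.2%) had a narrow and all had a wide site (68.6% of all protein-coding genes). Narrow sites were 15.8% of the 777 sites in the list, and Fgfr2 held 48 of the 123 narrow sites and 333 of the 777. The annotated span of Fgfr2 overlaps 30 other protein-coding genes, so its sites cannot be ascribed to it alone. With that span included, the list had 2.43 narrow and 10.04 wide sites per 100 kb, against 1.57 and 5.67 over all genes. A narrow site was present in 30.5% of all protein-coding genes and in 59.2% of those of 50 to 100 kb, and the median span of the list was 69.8 kb. The EGF receptor gene Egfr had 12 narrow and 26 wide sites, and the collagen receptor gene Ddr2 had 7 and 18. Of 22 genes of AP-1 and TEAD-YAP factors, 8 (36.4%) had a narrow site, which is near the 30.5% of all genes. Per 100 kb they had 3.90 narrow and 17.9 wide sites. Tead1 had 10 narrow and 50 wide sites, Wwtr1, which encodes TAZ, had 9 and 20, and the cofactors Vgll3 and Vgll4 had 4 each. In the genes of COMPASS/KMT2 subunits, to which ASH2L belongs, 10 of 21 (47.6%) had a narrow site, compared with 30.5% of all genes and 34.1% of genes of 20 to 50 kb (median span of the list 27.4 kb). They held 21 narrow sites of 81, or 25.9% (interval 17.6 to 36.4%), against 17.2% over all genes. Per 100 kb they had 2.22 narrow and 5.29 wide sites. Kmt2c, a methyltransferase of the complexes, and Ncoa6, a subunit found with it, had 5 narrow and 4 wide sites each, Kdm6a 2 and 3, and Psip1 2 and 1.

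A list of 45 genes of synaptic adhesion, receptors and channels was chosen as genes with little known function in fibroblasts. Of these, 31 (68.9%) had a narrow and 33 (73.3%) a wide site, against 30.5% and 68.6% of all protein-coding genes. Narrow sites were 26.8% of the 798 sites in the list (interval 23.9 to 30.0%), and its median span was 726 kb. Over all genes of 500 kb or more the proportion was 23.0%, and 83.1% of those genes had a narrow site. Per 100 kb the listed genes had 0.55 narrow and 0.95 wide sites, both below the values over all genes. Dlg2, named above, led the list, and Cacna1c, a voltage-gated calcium channel, had 15 narrow and 73 wide sites. Rbfox1, a splicing regulator, had 15 and 33, and Lrp1b, a lipoprotein receptor-related protein, had 13 narrow and only 5 wide sites.

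The families of ribosomal protein and olfactory receptor genes consist of short genes, and of all genes under 20 kb 10.8% had a narrow site. Of 82 ribosomal protein genes 20 (24.4%) had a narrow and 72 (87.8%) a wide site, and 68.6% of all protein-coding genes had a wide one. Narrow sites were 12.2% of the 188 sites in ribosomal protein genes (interval 8.29 to 17.7%). The median span of this list was 4.27 kb, and over all genes under 20 kb the proportion was 11.2%. Rpl26 had the most narrow sites, 3 of 6 in all. Of 1134 olfactory receptor genes 14 (1.23%) had a narrow site and 22 (1.94%) a wide one, both below the shares over all protein-coding genes, 30.5% and 68.6%. These 14 genes held 15 narrow sites, of which Olfr1226 had 2.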

How the data were processed

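The authors trimmed the reads and used BWA for alignment to mm10, SAMtools for filtering and MACS2 for broad peaks on merged replicates, per the labels and the study's methods. Versions and thresholds were not given in the sources used here. The deposited values are positions and no other measure, with starts counted from 0, in 1 set over all samples. The caller's minimum length and its joining of neighboring peaks may set both the 200 bp floor and the gaps.

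From the deposited positions, distances to TSSs, genes and exons of GENCODE release M21 (M25 was not used here) were computed (Python 3.11.15, numpy 2.4.6, pandas 2.3.3) on GRCm38.p6 sequence with its soft masking. GC content, masking and motifs were read in the central 200 bp of each site, and 75-base words were counted on both strands of the whole genome. Genome windows were placed every 10 kb. Functions were tested on simulated data. Differences carry Newcombe intervals (shares) or normal intervals (means). Alternatives changed 1 choice at a time. Members and gene lists were chosen with earlier results of these data known. Genes were named by rule: the 12 with most narrow sites, the 8 with most among genes without wide sites, the 8 with most per 100 kb (at least 5 sites), the 5 with most wide sites and the first 4 of each list. Genes on chromosome 18 were counted but not named. One item that the rule names is not reported here.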

Additional observations from a re-analysis of the deposited data

Results flagged for a closer look

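Outside the chromosomes used for the comparisons, 9 sites of 200 to under 300 bp lay on 4 scaffolds. They are signal in a part of the table that no comparison uses, and no input or control level exists for them in the table. All sites outside chromosomes 1 to 19 and X numbered 36, on 12 scaffolds, and chromosome Y held none. No cause was tested.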

How the results depend on the processing

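Of 51 alternatives, 47 were set at the start and 4 were added after seeing the data. In 22 the difference between narrow and wide sites stayed within its interval or, for the number of genes, within 1.5 times. Another 26 moved it, and 3 turned its sign, which was counted only where the main interval held a single sign. All 3 concern the mean GC content, which was -0.46 points with the whole site, -0.79 points compared with sites of 1000 bp or more and -0.26 points among alone sites, an added alternative. Its other values were 1.83 points away from TSSs, 0.22 points with members under 250 bp and 0.64 points beside wide sites (added). For TGANTCA the main interval held both signs, so no turn was counted, and its difference ranged from -1.17 to 1.39 points. For the cause no test was made.

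Compared with sites of 1000 bp or more, the differences were -17.2 points within 1 kb of a TSS, 10.4 points between genes, 9.42 points for sites that stand alone, -10.2 points for a wide site within 1 kb, 3.698 points for masked bases and 1.39 points for TGANTCA. With members under 250 bp they were 7.44 points for sites that stand alone, 3.05 points for masked bases and 0.21 points for repeated words. Without sites within 1 kb of a TSS they were 7.80 points for sites that stand alone, -7.69 points for a wide site within 1 kb, 1.65 points for masked bases and -1.17 points for TGANTCA.

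The share within 1 kb of a TSS differed by -10.2 points with protein-coding transcripts and -15.4 points from the nearest edge. For sites that stand alone the difference was 5.80 points at 10 kb and 3.28 points between centers, which lie further from the neighbors in wider sites by construction. For a wide site nearby it was -5.92 points within 500 bp and -10.0 points within 5 kb. It was 3.35 points for a masked central base and 0.25 points when any of 3 words was repeated. TGANTCA differed by 0.72 points among alone sites and -1.16 points beside wide sites, both added. The number of genes with a narrow site ranged from 5029 to 6663.

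No paired analysis was possible because sites carry no value per library, and leaving out a replicate was not possible for the same reason. Depth is unknown, and its relation to width was not tested.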
